A study of Mus musculus with 2 samples.

Results

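The broad peaks are the 903 peaks of 38223 (2.36%, 95% Wilson interval 2.21 to 2.52) in the shorter peak list of the replicate 2 library whose width, end minus start, was 500 bp or more. They were chosen by that width alone, and the other 37320 peaks of the list are called narrower peaks. The broad peaks had a median width of 580 bp and a maximum of 1220 bp, against a median of 200 bp for the narrower peaks, and covered 549 kb, or 6.58% of all peak bases. The series consists of 2 DNase-seq libraries of CD8-positive naive resting T cells of the alpha-beta type, primary cells from virgin male B6CASTF1/J mice aged 2 months. They are called replicate 2 and replicate 3 after their biological replicate numbers (technical replicate 1 in both). They share 1 donor label and have separate biosample labels, so the spread between them may be technical. There is no treatment or control group. The same width rule found 155 of 17061 peaks (0.909%) in the shorter list of replicate 3, where the widest peak had 1000 bp.

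DNase I cuts DNA that nucleosomes and bound proteins leave bare, so stretches rich in cuts mark open regulatory DNA. Most open sites span about the length of a nucleosome-free gap, and a wider call can mark an open region with several gaps, a CpG island or a run of weaker cutting beside a stronger site. Promoters of many housekeeping and regulatory genes lie in CpG islands, stretches in which the CpG dinucleotide has escaped the loss seen in the rest of the genome. Footprints are short stretches inside open DNA that are protected from cutting, often by a bound protein.

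The labelled cell type was checked against marker genes. Replicate 2 had promoter peaks at Cd3e, Cd3g, Cd3d, Cd247, Lck, Zap70, Lat, Cd8b1, Lef1, Ccr7 and Il7r. Of these 11 genes, replicate 3 had a promoter peak in its shorter list at Zap70, Lat and Cd8b1 alone. Replicate 2 had none at Cd8a or Tcf7, and none at the B cell genes Cd79a, Pax5 and Ms4a1, the myeloid genes Csf1r, Lyz2 and Spi1, the NK genes Ncr1 and Klrb1c, or the helper genes Cd4 and Zbtb7b, nor had replicate 3. Some genes of other cell types did have a promoter peak in replicate 2. In the gene lists used below these were Cebpa, Cebpb, Itgam and Klrd1 (4 of 21 B cell, myeloid and NK genes). They were also Bcl6, Icos, Maf and Ccr4 (4 of 16 CD4 and helper genes). Trac has no protein-coding start site in the annotation used and was not checked. Signal values below 2 were whole multiples of 0.00746 in replicate 2 and of 0.0452 in replicate 3 (within 0.05 of a step), a step 6.05 times larger in replicate 3. Depth itself is not stated, so intervals below cover counting error only, and peaks of 1 library are not replicates.

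Windows of 200 bp from 5 broad peaks show what these regions look like. Each window was taken from a peak named below, lies outside GENCODE M21 exons and holds the most footprint bases of its peak among such windows. The first 2 come from among the widest peaks, the next 2 from the widest peaks outside promoters that were found again in replicate 3, and the last from the broad peak with the highest replicate 3 signal. The Tmpo window includes 63 bases of a tRNA gene of the RefSeq annotation, which the exon rule did not cover. Capitals mark bases inside replicate 2 footprints, and all are the plus strand of GRCm38 (mm10), from the RefSeq assembly. The Epas1 window is chr17:86754911-86755110, the Pias3 window chr3:96696837-96697036, the Arhgap25 window chr6:87502787-87502986, the Rab11fip4 window chr11:79710854-79711053 and the Tmpo window chr10:91181421-91181620.
Epas1: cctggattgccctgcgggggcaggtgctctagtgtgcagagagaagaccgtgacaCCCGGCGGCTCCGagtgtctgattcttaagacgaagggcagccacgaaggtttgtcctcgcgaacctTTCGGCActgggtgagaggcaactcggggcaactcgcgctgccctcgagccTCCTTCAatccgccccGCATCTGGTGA
Pias3: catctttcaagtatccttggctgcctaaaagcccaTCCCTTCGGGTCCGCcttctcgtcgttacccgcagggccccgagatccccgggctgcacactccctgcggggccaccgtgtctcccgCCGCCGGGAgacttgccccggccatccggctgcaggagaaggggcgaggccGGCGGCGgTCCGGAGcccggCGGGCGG
Arhgap25: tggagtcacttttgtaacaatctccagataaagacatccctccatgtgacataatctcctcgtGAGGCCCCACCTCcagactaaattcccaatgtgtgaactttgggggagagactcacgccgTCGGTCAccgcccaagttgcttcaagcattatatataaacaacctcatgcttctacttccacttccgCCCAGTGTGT
Rab11fip4: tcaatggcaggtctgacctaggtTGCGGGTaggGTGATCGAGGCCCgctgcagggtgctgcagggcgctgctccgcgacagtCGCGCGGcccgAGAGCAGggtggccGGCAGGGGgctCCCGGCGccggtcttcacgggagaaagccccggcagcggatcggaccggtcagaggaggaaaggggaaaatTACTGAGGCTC
Tmpo: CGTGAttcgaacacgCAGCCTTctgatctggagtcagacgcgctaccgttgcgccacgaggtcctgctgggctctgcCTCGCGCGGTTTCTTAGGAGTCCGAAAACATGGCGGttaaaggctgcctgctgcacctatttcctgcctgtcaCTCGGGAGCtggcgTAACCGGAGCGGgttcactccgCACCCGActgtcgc
The Pias3, Tmpo and Rab11fip4 windows held 22, 20 and 19 CpGs and 5, 5 and 7 footprints. The Epas1 window held 16 CpGs and 4 footprints. The Arhgap25 window, outside promoters, held 6 CpGs and 3 footprints.

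The 10 widest broad peaks lay mostly at the 5′ ends of genes, and their signal was modest. The widest, chr11:106159881-106161100 at Limd2, spanned 1220 bp with its midpoint at -349 bp from the start site, a signal of 2.16 and 10 footprints. Epas1, which encodes an oxygen-regulated transcription factor, had a peak of 1216 bp (chr17:86754001-86755216) centred 909 bp inside the gene, of which 908 bp were intronic, with a signal of 0.783. Sox4, a transcription factor gene of lymphocyte development, had 1207 bp (chr13:28952234-28953440), of which 788 bp were coding sequence, with a signal of 0.813 and 2 footprints. All 3 were absent from the shorter list of replicate 3.

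Zfp36l2, which encodes an RNA-binding protein that promotes mRNA decay, held both the fourth and the fifth of them. Its peak of 1180 bp (chr17:84185941-84187120) lay wholly in coding sequence, with 147 CpGs and a signal of 2.40, and replicate 3 had 2 peaks there, the stronger at 2.39. The other, 1140 bp at chr17:84181241-84182380, was intergenic, 6136 bp past the start site, with 25 CpGs and no replicate 3 peak. The 2 wide calls near this gene thus differed in base composition and in replicate 3.

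Pias3, an inhibitor of STAT signalling, had 1120 bp at a signal of 1.02 and 13 footprints. Btbd11 had 1100 bp at 0.903, Rreb1, a Ras-responsive zinc finger factor, 1080 bp at 1.08, and Tnrc6c, a component of microRNA silencing, 1020 bp at 0.895 with no footprint. An intron of Crim1 held the last, 1020 bp at 1.04, with 14 CpGs. In all 4 broad peaks had 1020 bp, so the last 2 places of the 10 are ties, taken in order of chromosome name and position. Of the 10, only the coding Zfp36l2 peak was found in the shorter list of replicate 3, and the Limd2 and Pias3 peaks in its longer list.

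Broad peaks were promoter peaks more often than narrower ones. Of the 903 broad peaks, 654 (72.4%, 69.4 to 75.2) had their midpoint within 1000 bp of a protein-coding start site of GENCODE M21, against 15418 of 37320 narrower peaks (41.3%, 40.8 to 41.8), a difference of 31.1 percentage points (Newcombe 95% interval 28.1 to 34.0). The midpoint was used because a wide peak meets a fixed window more easily. The other broad peaks were intergenic (128), intronic (101) or exonic (20). In replicate 3, which did not choose them, the same rule gave 89.0% for broad and 60.4% for narrower peaks, a difference of 28.6 points (22.7 to 32.7). Over both libraries the share averaged 80.7% ± 11.7 for broad and 50.9% ± 13.5 for narrower peaks (SD, n = 2 libraries), so the libraries differed in level more than in the gap.

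Most of the climb came below the 500 bp threshold. In replicate 2 the promoter share was 19.7% at 100 to 200 bp, 51.9% at 200 to 300 bp, 64.4% at 300 to 400 bp and 67.8% at 400 to 500 bp. Within the broad peaks it was 70.1% at 500 to 600 bp, 77.8% at 600 to 700 bp, 71.4% at 700 to 800 bp and 76.8% at 800 bp or more, with overlapping intervals. The broad peaks thus continued a plateau and did not form a step of their own. Grouped into 10 equal classes by replicate 2 signal, broad peaks had the higher promoter share in 9 of 10 classes, the lowest class being the exception (23.1% of 13 against 34.2% of 3810).

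**Figure D1:**
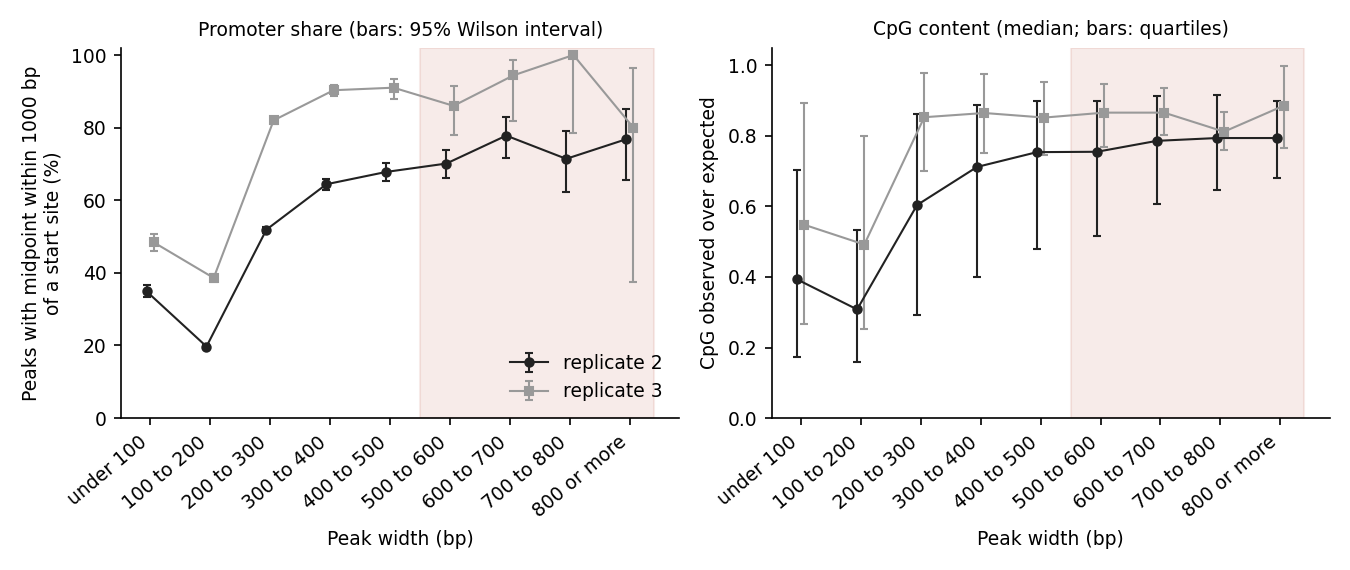
Promoter share (left, percent of peaks, bars 95% Wilson intervals) and median CpG observed over expected (right, bars quartiles) by peak width in bp, for replicate 2 (circles) and replicate 3 (squares), with the widths of 500 bp or more shaded. Both measures climb between 100 and 400 bp and are nearly level above that, as in replicate 2 with 64.4% at 300 to 400 bp and 70.1% at 500 to 600 bp.

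Broad promoter peaks were shifted into the gene. Their midpoints had a median of 94 bp from the nearest start site (positive is downstream), against -12 bp for narrower promoter peaks. Midpoints over 250 bp downstream made up 33.2% (29.7 to 36.9) of broad and 23.0% (22.4 to 23.7) of narrower promoter peaks. The 200 bp just upstream of the start site held 21.3% of broad and 43.1% of narrower midpoints. In replicate 3 the medians were 6 bp and -23 bp, and the share over 250 bp downstream was 15.9% (10.8 to 23.0) against 12.0% (11.4 to 12.7). The interval of the narrower peaks lies inside that of the broad ones, so a higher downstream share was not detectable in replicate 3.

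The start site itself lay inside 60.9% (57.1 to 64.5) of broad and 53.9% (53.1 to 54.7) of narrower promoter peaks. Peaks lying wholly downstream made up 30.0% of broad and 28.3% of narrower ones, and peaks lying wholly upstream 9.17% and 17.7%. Per base, broad promoter peaks were 40.9% intron, 11.8% coding sequence and 22.3% outside genes, against 30.4%, 7.89% and 33.7% in narrower ones, and the rest was UTR. Start sites of 2 genes on opposite strands within 500 bp of the midpoint, the mark of a bidirectional promoter, were found at 5.05% of broad and 7.34% of narrower promoter peaks, a difference of -2.29 points (-3.78 to -0.293). In replicate 3 this difference had the other sign, at 16.7% and 10.3%.

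**Figure D2:**
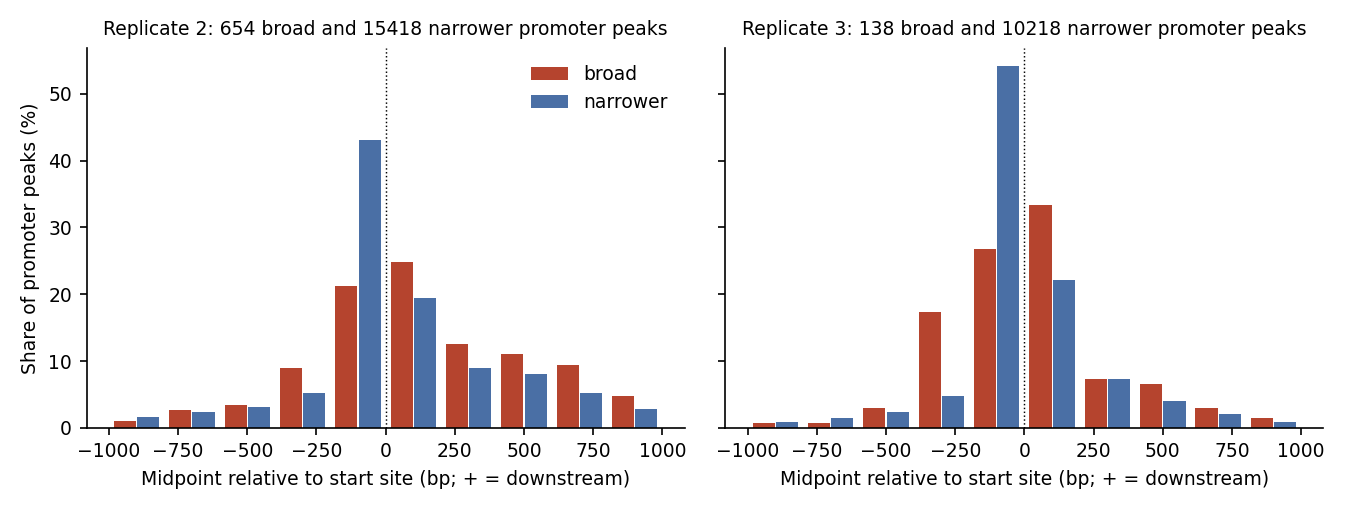
Share of promoter peaks (percent, vertical) by the position of the midpoint relative to the nearest protein-coding start site (bp, 200 bp classes), for broad (red) and narrower (blue) peaks of replicate 2 (left) and replicate 3 (right). Narrower peaks pile up just upstream of the start site (43.1% in replicate 2) where broad peaks have 21.3%.

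Broad promoter peaks often had a stronger neighbour. A separate, non-overlapping peak of the same list lay within 1 kb of 72.9% of broad and 61.1% of narrower promoter peaks. That neighbour had the higher signal for 47.7% (43.9 to 51.5) of broad and 34.4% (33.6 to 35.1) of narrower promoter peaks. Outside promoters a stronger neighbour lay within 1 kb of 30.5% (25.1 to 36.5) of broad and 12.4% (12.0 to 12.8) of narrower peaks. Widths and signals of replicate 2 are of the library that chose the members, so these shares are a description.

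The list also holds calls that overlap each other. Of the broad peaks, 409 (45.3%) shared bases with another peak of the list, against 1.94% of narrower peaks, and 217 held a whole other peak. In replicate 3 the shares were 57.4% and 1.35%. The overlapping partner had a median width of 300 bp and the lower signal in 404 of 435 pairs (92.9%). Counted by overlap, the 903 broad peaks lie in 877 separate clusters. The broad call was thus usually the stronger of the overlapping calls at a place.

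CpG content was higher in broad peaks, with a small gap among promoter peaks of replicate 2 and none among those of replicate 3. The ratio of observed to expected CpG (the CpG count times the length over the product of the C and G counts, from the reference genome) had a median of 0.774 in broad and 0.468 in narrower peaks, and in replicate 3 of 0.864 and 0.737. Broad peaks held 7.77 CpGs per 100 bp and a median GC content of 64.6%, against 5.26 CpGs and 55.9% in narrower peaks. Among promoter peaks alone the medians were 0.828 and 0.805, with quartiles of 0.712 to 0.933 and 0.630 to 0.946 that nearly coincide, and in replicate 3 they were 0.864 and 0.866. Outside promoters the replicate 2 medians were 0.412 for broad and 0.283 for narrower peaks. The central 200 bp gave 0.768 and 0.458, so the gap was as large there, though the window reaches past narrower peaks under 200 bp wide.

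Broad peaks were not the strong peaks of the library. Their median signal in replicate 2 was 1.35 (quartiles 0.970 to 2.25), against 1.26 (0.746 to 2.64) for narrower peaks, and 76 of the 903 were in the top class of 10. At promoters the median was 1.37 for broad and 2.19 for narrower peaks, and outside promoters 1.31 and 1.04. The highest broad signal was 16.9, against 164 in the narrower peaks. Only 13 broad peaks fell in the lowest class, so the broad peaks were concentrated in the middle of the range.

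Replicate 3 gave the same order at promoters. Where a replicate 2 peak overlapped a peak of the shorter list of replicate 3, the strongest such peak had a median signal of 2.48 (quartiles 1.67 to 4.16) for broad and 3.21 (2.08 to 5.15) for narrower peaks. Within promoters the medians were 2.62 and 4.20, and outside them 2.17 and 2.30. When the rule was turned round, so that replicate 3 chose the broad peaks and replicate 2 gave the signal, the order reversed to 4.19 for broad and 2.90 for narrower peaks. Within promoters the exchanged medians were close, at 4.10 and 3.97, and outside them they were 4.22 (17 broad peaks) and 2.03. The signal of a broad peak relative to a narrower one thus depended on which library chose them, and the reversal was small at promoters.

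Just under 50% of the broad peaks were found in replicate 3. A peak of its shorter list shared at least 1 bp with 445 of 903 broad peaks (49.3%, 46.0 to 52.5) and with 15808 of 37320 narrower peaks (42.4%, 41.9 to 42.9), a difference of 6.92 points (3.63 to 10.2). Its longer list met 628 broad peaks (69.5%) and 58.5% of narrower ones. A wider peak has more bases to be met on, and by the midpoint alone the order was the opposite. The midpoint lay inside a replicate 3 peak for 31.7% (28.7 to 34.8) of broad and 39.9% (39.4 to 40.4) of narrower peaks, a difference of -8.25 points (-11.2 to -5.10).

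The higher share also went with the mix of peak classes. Among promoter peaks 57.2% of broad and 60.3% of narrower peaks were found, a difference of -3.15 points (-7.05 to 0.667), and outside promoters 28.5% and 29.7%, a difference of -1.19 (-6.47 to 4.75). Both intervals span 0. With the longer list of replicate 3 the shares were 77.1% and 71.2% at promoters, a difference of 5.83 points (2.38 to 8.97), and 49.8% and 49.5% outside them (0.347, -5.85 to 6.55). At promoters the order thus depended on the list. Across signal classes presence ran from 0 of 13 broad and 57 of 3810 narrower peaks in the lowest to 98.7% and 99.2% in the highest. In class 3 of 10, the widest gap, it was 23.1% (15.1 to 33.6) for broad and 6.86% (6.10 to 7.72) for narrower peaks.

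**Figure D3:**
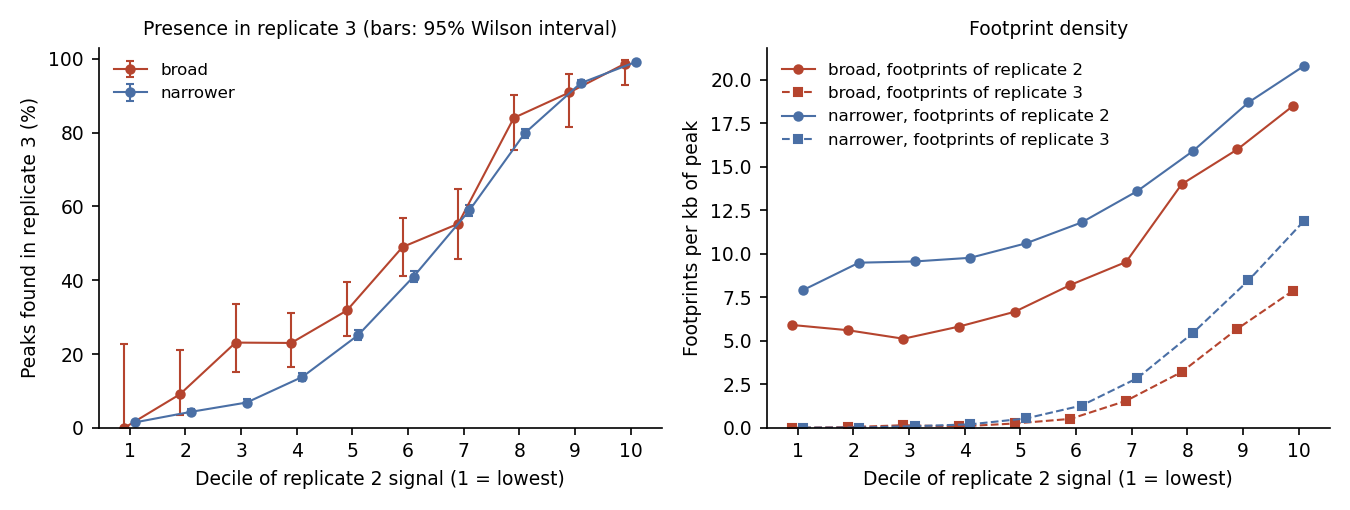
Share of replicate 2 peaks found in the shorter list of replicate 3 (left, percent, bars 95% Wilson intervals) and footprints per kb of peak (right, solid lines replicate 2 footprints, dashed lines replicate 3 footprints), by class of replicate 2 signal from lowest (1) to highest (10), for broad (red) and narrower (blue) peaks. Presence climbs with signal to 98.7% for broad and 99.2% for narrower peaks, and the solid broad line lies below the narrower one in all 10 classes.

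Broad peaks were seldom broad again. Of the 445 found, 62 (13.9%) overlapped a replicate 3 peak of 500 bp or more, against 152 (0.962%) of the narrower peaks found. The widest overlapping replicate 3 peak had a median width of 280 bp for broad and 186 bp for narrower peaks. Replicate 3 had 2 or more calls on 173 of the broad peaks found (38.9%), against 1.85% of the narrower ones. With calls that overlap each other counted as 1 place, it had 2 or more places on 123 (27.6%, 23.7 to 32.0) and 0.962% (0.821 to 1.13). It covered a median of 55.2% of a broad peak and 85.7% of a narrower one. A broad call of replicate 2 was thus often met in replicate 3 only in part, and at times by several separate calls.

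From the other side, 154 of the 155 broad peaks of replicate 3 were met by a replicate 2 peak, and 59 (38.1%) by a broad one. From the side of replicate 2, the 62 broad peaks that met a broad one are 6.87% of its broad peaks. For each peak, the longest stretch it met of positions with a deposited false discovery rate of at most 0.05 was taken. Its median length in replicate 2 was 1366 bp for broad and 456 bp for narrower peaks. In replicate 3 the longest stretches met by the same peaks had medians of 593 bp (653 broad peaks) and 272 bp (22999 narrower peaks). These were 661 and 503 bp at promoters, and 393 and 202 bp outside them. A wider peak can meet more stretches, so its longest one tends to be longer by width alone. The part of that in the gap was not tested.

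Footprints were thinner in broad peaks. Broad peaks held 5101 replicate 2 footprint midpoints, or 9.29 per kb (Poisson 95% interval 9.03 to 9.54), against 13.4 per kb (13.3 to 13.5) in narrower peaks. The footprints of replicate 3, which did not choose the peaks, gave 1.68 per kb (1.58 to 1.79) in broad and 3.55 (3.51 to 3.59) in narrower peaks. In the central 200 bp, where both kinds give the same length of DNA, the replicate 2 densities were 10.3 and 13.1 per kb. For narrower peaks under 200 bp wide this window reaches past the peak. The gap was present at promoters (9.28 and 14.1 per kb) and outside them (9.29 and 12.7 per kb), and replicate 2 footprints were thinner in broad peaks in all 10 signal classes. Replicate 3 footprints were denser in broad peaks in 2 of the 10, class 2 (0.0377 and 0.0165 per kb) and class 3 (0.150 and 0.0950), and thinner in the others.

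Per peak, broad peaks still held more footprints. Their median was 6, against 3 for narrower peaks, and the highest count was 18. Of the broad peaks, 155 (17.2%) held none, 191 held 1 to 4, 399 held 5 to 9 and 158 held 10 or more, while 12.7% of narrower peaks held none. In replicate 3's own peaks the order was the opposite, with no footprint in 13.5% of broad and 30.5% of narrower peaks. Along a broad peak, the middle 20% of the length held 21.9% of replicate 2 and 20.5% of replicate 3 footprints, against 29.1% and 38.9% in narrower peaks. The outermost 20% on either side together held 32.9% and 31.8% in broad peaks, against 31.5% and 16.0% in narrower ones. The middle thus held a smaller part of the footprints in broad peaks, while the ends held about the same part of replicate 2 footprints in both kinds.

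Motif letters in the central 200 bp, which reaches past narrower peaks under 200 bp wide, followed a like pattern at promoters. Each motif was searched on both strands as exact letters: CCGGAAGT for ETS factors, GCGCATGCG for NRF1, GGGCGGGG for SP/KLF, CCAAT for NFY, TGACGTCA for CREB/ATF, AGGGGGCGC for CTCF and TGTGGTT for RUNX. The others, with no value given here, were CTTTGAT for TCF/LEF, GGGTGTGG for the KLF GT-box, AAGATGGCG for YY1, CACGTG for the E-box, TGANTCA for AP-1, TGTTTAC for FOXO, TATAAA for the TATA box, ACTACAATT for GFY and AGATAAG for GATA factors. NFY, a CCAAT-binding promoter factor, had its letters in 15.1% of broad and 26.1% of narrower promoter peaks, a difference of -11.0 points (-13.6 to -7.93), and in 28.6% of 32851 RefSeq promoters (the 200 bp that end 50 bp past the start). ETS letters were in 1.53% and 5.94% (-4.41, -5.21 to -3.10), and in 3.41% of RefSeq promoters. Both were thus rarer at the centre of broad promoter peaks, whose centres also lie further into the gene; the part of that position was not tested.

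Of the other promoter motifs, NRF1 letters were in 0.765% of broad and 2.67% of narrower promoter peaks (1.49% of RefSeq promoters). CREB/ATF letters were in 0.917% and 2.78% (1.60%), and SP/KLF letters in 19.1% and 24.0% (15.3%). The difference intervals of these 3 lie below 0. RUNX letters, the site of a T cell factor family, were in 2.75% and 2.58% of promoter peaks and in 9.24% and 9.41% of peaks outside promoters (3.51% of RefSeq promoters), with intervals that span 0.

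Outside promoters the CTCF letters, part of the site of the chromatin loop anchor protein, were in 0 of 249 broad peaks, which allows a share of up to 1.20% by 3 counts of the total (Wilson upper limit 1.52%), against 901 of 21902 narrower peaks (4.11%, 3.86 to 4.38). Over whole peaks the density was 0.00669 per kb in broad and 0.220 per kb in narrower peaks outside promoters. In promoter peaks they were in 1.68% and 2.30%, and in 0.989% of RefSeq promoters. SP/KLF letters went the other way outside promoters, at 8.84% (5.91 to 13.0) of broad and 3.61% (3.37 to 3.86) of narrower peaks, and so did ETS letters, at 2.81% and 1.02% (a difference of 1.79 points, 0.339 to 4.67). A match is a run of letters and not a bound site. Matches of different motifs may overlap and were counted for each motif.

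At the gene level, 664 of the 10986 protein-coding genes with any promoter peak in replicate 2 had a broad one, or 6.04%. In replicate 3 the count was 163 of 8899, or 1.83%, and 64 genes were in both sets (9.64% of the replicate 2 set and 39.3% of the replicate 3 set). Genes with a broad peak had on average 2.62 promoter peaks, against 1.56 for the other genes. In 302 of the 664 (45.5%) a narrower peak was the strongest at the promoter. Where a gene had both kinds (568 genes), the strongest broad peak had a median signal of 1.33 and the strongest narrower one 2.73.

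In replicate 3 a promoter peak was present at 535 of the 664 genes (80.6%, 77.4 to 83.4) and at 80.9% (80.2 to 81.7) of the other genes, a difference of -0.352 points (-3.62 to 2.58). The strongest of those replicate 3 peaks had a median signal of 4.16 for genes with a broad peak and 4.70 for the others. Genes with and without a broad peak were thus open in replicate 3 at shares whose difference interval spans 0.

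Gene lists were read against the 6.04% of all genes. Of transcription factors of naive T cells, 5 of 20 with a promoter peak had a broad one, and the widest peaks of the list had a median of 350 bp, against 245 bp over all genes. Chromatin regulators had 5 of 29 (median 360 bp), immediate early genes 4 of 30 (310 bp), effector and exhaustion genes 2 of 12 (225 bp) and RNA processing genes 2 of 30 (300 bp). None of 24 T cell receptor and costimulation genes (265 bp), 25 cytokine receptor, homing and JAK-STAT genes (260 bp), 51 cytosolic ribosomal protein genes (240 bp) and 40 proteasome and oxidative phosphorylation genes (220 bp) had one. Few members of the B cell, myeloid and NK list (4 of 21), the CD4 and helper list (4 of 16) and the developmental list (3 of 34) had any promoter peak. None of those members had a broad one.

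Replicate 3 put few of these in the broad class. It had a broad promoter peak at Setd2 and Ep300 of 29 chromatin regulators, at Zfp36l2 of 22 immediate early genes and at Srsf1 of 29 RNA processing genes, and at none of 14 naive T cell factors, against its background of 1.83%. Only Setd2 was shared with replicate 2. The list counts therefore describe replicate 2.

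**Figure D4:**
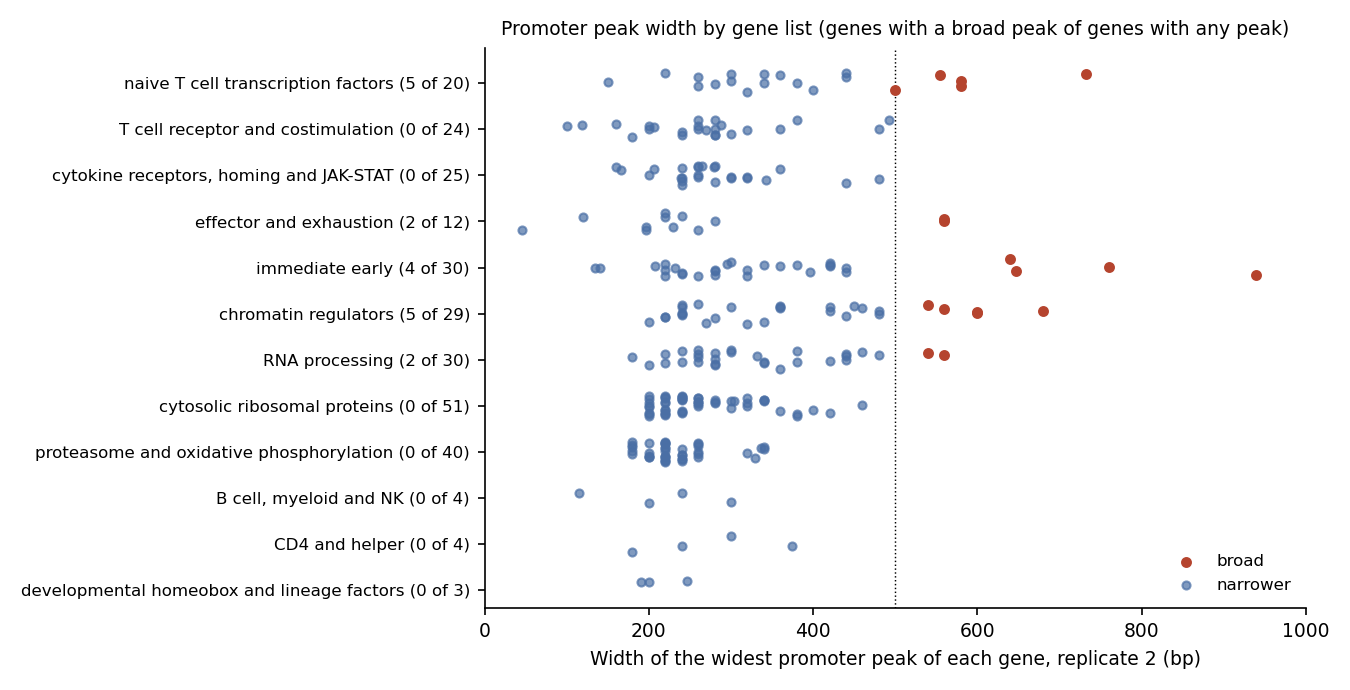
Width (bp) of the widest replicate 2 promoter peak of each gene with a promoter peak, 1 point a gene, for 12 gene lists, with broad peaks in red, narrower peaks in blue and the 500 bp threshold dotted. The naive T cell factors have 5 of 20 points at 500 bp or more, and the 51 ribosomal protein genes none.

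Lef1, a transcription factor that sustains the naive state, had 2 broad promoter peaks among 6. The wider (chr3:131110989-131111720, 732 bp) was centred 884 bp from the start site with a signal of 1.13 and no footprint, and neither list of replicate 3 met it. The other (chr3:131111981-131112580, 600 bp) had a signal of 2.93 and 9 footprints and was met by the longer list of replicate 3 alone. A further broad peak of 640 bp lay at -96050 bp from the start site, with a signal of 1.38. All 3 calls were thus missing from the shorter list of replicate 3.

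Bach2, a repressor that restrains effector differentiation, had 580 bp at 2.55, and replicate 3 had 2 peaks there of up to 3.07. Its strongest peak was narrower, 200 bp at 6.13, with 6.46 in replicate 3. Tox had 580 bp at 1.43 in replicate 2 and 2.12 in replicate 3. Foxp1, a quiescence factor, had 554 bp at 0.948, and Myb, named after its value was seen, 500 bp at 1.10. Neither was met in replicate 3. The widest broad peaks of these factors, Lef1 included, lay below the 2.73 median of the strongest narrower peaks at genes with both kinds, while the 600 bp peak of Lef1 lay above it.

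Of the immediate early genes, which respond fast to stimulation, Nr4a3, an orphan nuclear receptor, had 939 bp at 0.940 and Myc 760 bp at 1.33, and replicate 3 met neither. Fosl2, an AP-1 subunit, had 647 bp at 1.39 (2.53 in replicate 3). Dusp1, a MAP kinase phosphatase, had 640 bp at 5.60 with 12 footprints, and 6.46 in replicate 3, though as a peak of 80 bp. Dusp1 was the only one of the 4 whose widest peak was also its strongest.

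Among chromatin regulators, Ezh2, the methyltransferase of a Polycomb complex, had 680 bp at 1.23 with no footprint, beside a stronger peak of 240 bp at 5.79. Arid1b and Arid1a, subunits of a chromatin remodelling complex, had 600 bp at 1.12 and 560 bp at 2.08, beside 2.16 and 9.65 in narrower peaks. Setd2, a histone methyltransferase, had 600 bp at 1.60, and replicate 3 had 593 bp there at 1.76. Hmgn1, a nucleosome-binding protein and named after its value was seen, had 540 bp at 5.58 and 5.15 in replicate 3. In 4 of these 5 the broad peak stood beside a stronger narrower one.

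The splicing regulators Hnrnpa2b1 and Srsf6 had 560 bp at 1.92 and 540 bp at 2.66, with 2.53 and 4.20 in replicate 3. Prdm1, a transcriptional repressor, had 560 bp at 1.76 (2.80 in replicate 3). Tigit, an inhibitory receptor, had 560 bp at 1.32 with few CpGs (ratio 0.211) and 10 footprints, and only the longer list of replicate 3 met it. Tigit differed in CpG content from the other genes of these lists, whose widest broad peaks had ratios of 0.537 or more.

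Other genes of naive and CD8 T cells had narrower promoter peaks. Cd3e, a T cell receptor subunit, came closest with 492 bp at 1.69. The homing receptor Ccr7 had 440 bp at 6.54 and the genome organiser Satb1 440 bp at 4.63. Foxo1 had 400 bp, Cd8b1 360 bp, Klf2 340 bp at 14.7, Runx3 300 bp, Bcl11b 280 bp, Il7r 239 bp, Ets1 220 bp at 7.57 and Ikzf1 150 bp. Tcf7 and Cd8a had no promoter peak in the list. The Klf2 and Ets1 peaks were thus narrow and well above the 2.19 median signal of narrower promoter peaks.

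There were 47 genes with 2 or more broad promoter peaks, and in 30 the peaks did not overlap. A peak counted for every gene with a start site within 1000 bp of its midpoint, so the same peaks can count for 2 genes. Limd2 and Gm10840 had the same values, and whether they share their peaks was not checked. By summed width, with bases in overlapping calls counted for each call, the first were Limd2 and Gm10840 (1800 bp each), Rreb1 (1764 bp), Lbh (1633 bp), Pik3cd, the catalytic subunit of a leukocyte PI3 kinase (1600 bp), and Nr4a3 (1518 bp). Of these 6 genes only Lbh had peaks that do not overlap. Lbh had both its peaks in the shorter list of replicate 3, Pik3cd 1, and the others none.

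Outside promoters the 249 broad peaks were a mixed class. A start site of any annotated gene, noncoding ones included, lay within 1000 bp of 32 (12.9%, 9.25 to 17.6) of them, against 7.15% (6.82 to 7.50) of narrower ones, a difference of 5.70 points (2.08 to 10.4). The widest found in replicate 3, after the coding Zfp36l2 peak, were CpG-rich or strong. At chr8:4677721-4678620, 52331 bp from the Zfp958 start site, 900 bp had a signal of 7.67, and 6.91 in replicate 3. At chr4:133813221-133814000, at -56842 bp from the Arid1a start site, 780 bp had 4.75 and 96 CpGs, and 6.10 in replicate 3.

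Near Zfp869, 780 bp at chr8:69716401-69717180 had 5.48, and 5.01 in replicate 3, where calls covered all of it. An intergenic peak of 797 bp, 120027 bp from Rab11fip4, a vesicle transport gene, had 0.970 and 90 CpGs. In replicate 3 only 1 call of 60 bp at 1.45 met it, covering 7.53% of it. These 4 broad peaks had CpG ratios of 0.743 to 0.908, well above the 0.412 median of broad peaks outside promoters. The peak of 720 bp in an intron of Baz1a, a chromatin remodelling subunit, was like them (ratio 0.810) with a signal of 1.33.

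The remaining members of this set, at Arhgap25 and Klf2, were CpG-poor. In an intron of Arhgap25, 800 bp at chr6:87502481-87503280 had a signal of 3.04, a ratio of 0.301 and 3 replicate 3 peaks, in 2 separate places, of up to 2.30. Downstream of Klf2, which controls naive T cell trafficking, 740 bp at chr8:72322021-72322760 had 2.51, a ratio of 0.195 and 12 footprints, and replicate 3 had 2 peaks of up to 2.30. A second Klf2 peak of 1020 bp had no footprint and a signal of 1.37. The Klf2 promoter itself was 340 bp wide.

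By replicate 3 signal the leading broad peaks, picked after their values were seen, were 1 near Tmpo and 3 at promoters. The peak near Tmpo, a nuclear lamina gene (520 bp, chr10:91181421-91181940), had 12.7 in replicate 2 and 13.0 in replicate 3 and overlaps a tRNA gene in the RefSeq annotation. Dnpep, an aminopeptidase, had 16.9 and 12.1, Csnk1g2, a casein kinase, 11.8 and 11.7, and Sf1, a splicing factor, 16.3 and 11.3. All 4 were 500 to 700 bp wide, so the widest broad peaks and the strongest were different ones.

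At the other end, 67 broad peaks (7.42%) had no footprint in replicate 2 and no peak in either list of replicate 3. The same share was not computed for narrower peaks, so 7.42% cannot be called high or low. Of the 67, 54 were promoter peaks, as were 72.4% of all broad peaks. The median signal of the 67 was 0.873. The widest were at Tnrc6c (1020 bp at 0.895), Ppp1r10, a phosphatase regulator (932 bp at 1.21), Prmt6, an arginine methyltransferase (860 bp at 0.828, all coding sequence), Mllt3 (820 bp at 1.11) and Ppm1a, a phosphatase (800 bp at 0.836). Ppp1r10 alone of these was CpG-poor, with a ratio of 0.332 against 0.873 to 0.984 in the others.

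Of 236 broad peaks in the 3 highest signal classes, 6 were in neither list of replicate 3, against 337 of 11231 narrower ones. They were 2 at B4galnt1 (4.06 and 2.30) and 1 each at Gsk3a (4.25), Irgc1 (3.16), Smad7 (3.09) and Junb (2.62), chosen after their values were seen. Just inside the threshold, the 117 peaks of exactly 500 bp had a promoter share of 69.2%, a CpG ratio of 0.722, a signal of 1.82 and 60.7% found in replicate 3. Just outside, the 147 peaks of 480 bp had 70.7%, 0.776, 1.95 and 55.8%.

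The first peaks inside, by position, were at Rb1cc1 (500 bp at 3.78), Tbc1d8 (0.776), Clk1 (1.72), Als2cr12 (1.51) and Syne1 (0.858), each met in replicate 3. The first outside were at Bcl2 (498 bp at 0.948), Tspoap1 (498 bp at 1.50), Ap3m2 (498 bp at 0.888), Tpm4 (498 bp at 1.08) and Gbp10 (493 bp at 0.522), none of them met. Widths were partly stepped: both edges lay on a grid of 20 bp in 83.2% of broad and 64.7% of narrower peaks, and the 5 peaks outside are off that grid.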

How the data were processed

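DNase-seq peaks, footprints and false discovery rates of 2 libraries were used on mm10 (GRCm38), the build the labels name. Both libraries were processed separately, per the notes deposited with them. In the sources used here, the aligner and callers are not given. The authors' deposited signal value of each peak (column 7) has no stated scaling, so levels were compared within a library, and values of both libraries for a peak are only set side by side. For each stretch of positions the authors also deposited a q-value (false discovery rate), at most 0.05. Footprint lists carry 1 constant, so only intervals were used. The mice are a cross of strains and all bases come from the C57BL/6J reference; an effect of this was not tested.

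From these lists, width, position against GENCODE M21 protein-coding start sites, CpG content, footprint midpoints and overlaps were computed with Python 3.11.15, numpy 2.4.6, pandas 2.3.3 and scipy 1.17.1. Functions were tested on simulated intervals. With 1 group of 2 libraries no p-value was computed: shares have Wilson intervals, differences Newcombe intervals and densities Poisson intervals, at 95%. Reads carry no stated molecular identifiers, so intervals cover counting error only. Members, gene lists and motifs were chosen with earlier results of these data known, and the motif set was changed once after the files were read. Genes were named by rule: the 10 widest peaks, the 8 widest outside promoters found in replicate 3, up to 4 genes a list, a set of 17 T cell genes, 5 peaks with neither footprint nor replicate 3 peak, 6 genes with 2 or more broad peaks, 5 peaks either side of the threshold, and 5 windows for sequence, of which 1 came from a peak picked by its replicate 3 signal. Alternatives covered the width threshold, peak list, promoter window, overlap rule, signal weighting and each library left out. For presence and for the signal of the overlapping peak, the 2 libraries were exchanged instead.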

Additional observations from a re-analysis of the deposited data

How the results depend on the processing

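No paired analysis was possible because the design has 1 group and no comparison between groups. Of 73 alternatives, 6 reversed the direction. In 47 the value stayed within the spread between libraries (for presence, within the counting interval, and for gene counts, within 1.5 times), and in 20 it moved further. The spread is the SD of the main value and the value with replicate 2 left out, so the latter can never lie within it. For the signal ratio the spread was 0.472, made wide by a value that reversed. Covered footprint bases per kb were set against a spread of 1.53 footprints per kb, an unlike unit. The counts of 47 and 20 thus partly follow from how the spread was set. Gene counts have no direction to reverse. With replicate 3 left out, the promoter share, CpG ratio, footprint density and gene count repeat the main computation. Their unchanged values there are therefore no check. The cause was not tested for any of the 73 alternatives.

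The promoter share difference (main 31.1 points) was 29.3 at a width threshold of 400 bp, 34.1 at 600 bp, 19.6 with midpoints within 500 bp, 33.7 with window overlap in place of the midpoint and 33.8 with narrower peaks weighted to the signal classes of broad peaks, and ran from 28.6 to 31.1 with either library left out. The CpG ratio difference (0.305) was 0.0228 among promoter peaks and 0.130 outside them, and ran from 0.127 to 0.305 with either library left out. The footprint difference (-4.10 per kb) was -1.87 with replicate 3 footprints and -78.7 bases per kb as covered bases, and ran from -4.10 to -1.93 with either library left out. The difference in presence in replicate 3 (6.92 points) was 11.1 with its longer list, 0.214 with the longer list of replicate 2 and 1.69 at 750 bp. It reversed to -9.59 where 50% of the replicate 2 peak had to be covered, -14.9 where 50% of each peak had to be shared, -8.25 by the midpoint, -3.15 among promoter peaks and -1.19 outside them. The ratio of replicate 3 signals was 0.775. With the libraries exchanged, replicate 3 chose the peaks and replicate 2 was searched. The difference in presence in replicate 2 was then 3.64 points, and the ratio of replicate 2 signals was 1.44, a reversal. Genes with a broad promoter peak (664) numbered 1598 at 400 bp, 288 at 600 bp, 75 at 750 bp and 1012 in the longer list, and ran from 163 to 664 with either library left out.

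Overlapping calls left out or counted once, and 2 of the weightings by signal, were chosen after seeing the data, as was the midpoint rule for presence. Signal scaling and depth are not stated, so absence from replicate 3 is absence at its depth.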

Other observations

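In all, 13 genes were the nearest gene of 3 or more broad peaks, 4 of them (Lef1, Arid1a, Zfp36l2 and Smad7) named above. The others were picked after their values were seen. Tnfaip3, an inhibitor of NF-kappa B signalling, had 5 in 4 clusters, 540 to 827 bp wide and 3420 to 11468 bp past its start site. Their signals were 0.783 to 0.948, their CpG ratios 0.132 to 0.336, they held 27 footprints, and replicate 3 met none of them in either list. Hivep2, a zinc finger factor, had 3 of 500 to 800 bp with signals of 1.07 to 3.60, and all 3 were met by the longer list of replicate 3. Cdk6, a cell cycle kinase, had 3 of 520 to 1020 bp, with signals of 0.642 to 0.977 and none in replicate 3. Their midpoints lay -2442 to -1502 bp from its nearest start site, the first intergenic and the others in an intron. Jade2 had 3 of 500 to 800 bp and Elf2, an ETS factor, 3 of 540 to 740 bp with 1 footprint in all.

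Broad peaks made up 1.66% to 3.53% of the peaks of each autosome and 2.28% on X. On Y they were 4 of 38 peaks (10.5%, 4.17 to 24.1), all nearest to Gm21860, with signals of 0.380 to 0.634 and none in replicate 3. On X, Mid1 had 3 with signals of 0.403 to 0.433, and replicate 3 had none of these. On chromosome 9, Ppp2r3d had 5, of which 2 at its promoter had signals of 6.51 and 7.03 and were found in replicate 3.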
